A study of Arabidopsis thaliana with 12 samples.

Results

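The tau and phi glutathione S-transferases of Arabidopsis thaliana were followed as 41 genes, 28 of the tau class (GSTU1 to GSTU28) and 13 of the phi class (GSTF2 to GSTF14). They were picked by gene identifier, as all listed members of the 2 classes, and all 41 were among the 23911 genes of the count table. Glutathione S-transferases join the tripeptide glutathione to reactive or toxic compounds, which ABCC transporters then move into the vacuole. Tau and phi are the large plant classes, and they are known for detoxifying herbicides, for responses to oxidative stress and hormones, and for carrying ligands such as pigments or camalexin. Many of their genes stand side by side in tandem arrays. Several are induced through TGA transcription factors, which bind the core TGACG of the as-1 element.

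Poly(A) RNA of whole Col-0 seedlings, 2 to 3 weeks old, was sequenced with 75-base reads from directional libraries. The 4 groups of 3 samples were wild type without abscisic acid (ABA), wild type 4 h after a spray with 50 µM ABA, hda9-1 without ABA, and hda9-1 4 h after the same spray. All 12 samples share the Col-0 background, medium with 1% sucrose, 20 °C, and 16 h of light with 8 h of dark. ABA is the hormone of drought and salt stress, and HDA9 is a histone deacetylase. The mutant is represented by 1 allele, with no rescued line in these samples. The labels mention no mock-sprayed seedlings, and the hormone cannot be told apart from the act of spraying or from the hours that passed. The treatment field of the labels contradicts the sample titles, and the groups follow the titles. The titles call the samples biological replicates, but nothing states separate cultures, so the p-values measure only the spread between these samples.

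Totals ran from 42703802 to 52820930 counts per sample. Levels below are CPM (counts scaled to a common library size after TMM normalization), and differences are log2 fold changes ± SE from edgeR, and a gene passed the test at an adjusted p (Benjamini-Hochberg over the 20924 tested genes) below 0.05. HDA9 was at 15.7 to 17.1 CPM in the 6 wild-type samples and at 4.72 to 5.87 CPM in the 6 hda9-1 samples, as the genotype labels say. All 8 ABA marker genes on the list rose in both genotypes, as the titles say. The seedlings held both root and leaf RNA. The summed level of 10 root markers was 406 to 484 CPM in untreated wild type, 176 to 232 CPM in treated wild type, 278 to 369 CPM in untreated hda9-1 and 109 to 156 CPM in treated hda9-1, and none of the 10 was at 0 in any sample. The summed level of 9 leaf markers was 29330 to 37857 CPM over all 12 samples. The libraries of treated hda9-1 stood apart in another way: in replicates 1 and 3 the genes with exon lengths up to 1273 bases, called short genes below, lay 0.30 and 0.36 log2 above the trend of all samples, against -0.10 in replicate 2 and -0.13 to 0.08 in the other 9 libraries. Of the 41 members, 36 are such short genes, with a median exon length of 1087 bases. The members' counts, and the calls that change, are also given with this length trend removed.

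Of the 41 members, 37 had enough counts to be tested. GSTU11, GSTU15, GSTF5 and GSTF12 did not, with at most 0.508 CPM in any sample. GSTF12, also called TT19, carries anthocyanins to the vacuole. GSTU3 passed the filter on low counts only through treated hda9-1, where it is highest, so its higher level there is a description and supports nothing. In all, 28 members changed in at least 1 of the 4 comparisons between groups and 13 did not pass the test in any, including the 4 untested ones. Of all 20924 tested genes 55.7% changed in at least 1 of these comparisons.

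After ABA, 6 members passed the test with a change of at least 1 log2 unit in both genotypes: GSTU3, GSTU4, GSTU9, GSTU16, GSTU17 and GSTF14. How many of all tested genes did so was not counted, and nothing is drawn from the number. The 250 bases before the annotated transcript starts of these members are shown because they carry the largest shared responses, that of GSTU3 by description only. They are reference sequence from RefSeq (TAIR10.1), read 5′ to 3′ on the gene's strand, with capitals for the as-1 core TGACG on either strand. The windows are chr2:12629641-12629890 for GSTU3, chr2:12627892-12628141 for GSTU4, chr5:25089627-25089876 for GSTU9 and chr1:3398359-3398608 for GSTU17, all on the minus strand, and chr1:21936028-21936277 for GSTU16 and chr1:18458276-18458525 for GSTF14, both on the plus strand.
GSTU3: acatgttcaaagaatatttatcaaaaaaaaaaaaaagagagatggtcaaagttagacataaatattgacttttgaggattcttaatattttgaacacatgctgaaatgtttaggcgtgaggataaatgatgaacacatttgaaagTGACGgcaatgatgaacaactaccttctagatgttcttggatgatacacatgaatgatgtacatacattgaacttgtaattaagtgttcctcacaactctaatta
GSTU4: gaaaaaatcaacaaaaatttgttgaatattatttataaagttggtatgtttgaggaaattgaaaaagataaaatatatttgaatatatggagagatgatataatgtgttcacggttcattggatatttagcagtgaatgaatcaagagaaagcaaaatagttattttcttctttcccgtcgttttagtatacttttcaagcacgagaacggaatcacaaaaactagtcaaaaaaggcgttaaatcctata
GSTU9: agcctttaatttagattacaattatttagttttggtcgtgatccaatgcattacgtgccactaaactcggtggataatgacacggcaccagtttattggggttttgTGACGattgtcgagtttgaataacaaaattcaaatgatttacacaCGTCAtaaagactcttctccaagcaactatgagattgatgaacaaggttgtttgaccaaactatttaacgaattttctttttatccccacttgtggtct
GSTU16: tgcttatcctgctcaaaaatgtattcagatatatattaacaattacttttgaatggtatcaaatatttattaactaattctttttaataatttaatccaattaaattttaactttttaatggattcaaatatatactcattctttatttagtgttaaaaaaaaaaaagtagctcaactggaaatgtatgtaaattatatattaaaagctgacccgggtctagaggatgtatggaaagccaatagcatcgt
GSTU17: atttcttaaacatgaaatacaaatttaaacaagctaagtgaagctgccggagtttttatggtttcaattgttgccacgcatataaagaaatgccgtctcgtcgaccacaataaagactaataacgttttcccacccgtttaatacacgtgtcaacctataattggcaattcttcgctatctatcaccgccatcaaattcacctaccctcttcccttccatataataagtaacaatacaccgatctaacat
GSTF14: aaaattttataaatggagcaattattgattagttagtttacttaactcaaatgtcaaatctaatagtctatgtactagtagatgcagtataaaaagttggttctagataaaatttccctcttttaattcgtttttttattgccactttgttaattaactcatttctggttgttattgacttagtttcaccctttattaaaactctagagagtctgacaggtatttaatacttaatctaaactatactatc

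TGACG stood at 1 place in the GSTU3 window, 105 bases before the start. It stood at 2 places in the GSTU9 window, 144 and 99 bases before the start. GSTU4, GSTU16, GSTU17 and GSTF14 had no match in these 250 bases. Over all members, 14 of 41 windows (34.1%) held TGACG on either strand, 11 tau and 3 phi, against 5098 of 27443 windows of all genes (18.6%). GSTU7 had the most matches, 3, at 61, 52 and 49 bases before its start. The matches at 52 and 49 bases overlap, as the 2 strands of 1 palindrome, TGACGTCA. Among the windows with a match, those of GSTU7, GSTU5, GSTU24 and GSTF8 overlap another annotated gene (AT2G00850, AT2G29452, AT1G17160 and AT2G47710). Of the ABA-response element only the form ACGTGGC was searched, on either strand. It was in the window of GSTF8 alone among the members, where it overlaps a TGACG match, and in 926 windows of all genes (3.4%). The GSTU17 window holds ACGTGTC, which differs from that form in a single base and was not counted. These are matches of letters and show no binding.

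Tandem arrays held 29 of the members in 9 clusters, each with all its members on 1 strand, and 12 members stood alone. The cluster with the most members was GSTU1 to GSTU7 on chromosome 2 (12617936 to 12632538), followed by GSTU19 to GSTU23 on chromosome 1 (29467412 to 29488007) and GSTF4 to GSTF7 on chromosome 1 (658578 to 666471). Coding identity between cluster members ran from 60.6% to 94.7%. The starts of the coding sequences of 3 tandem pairs are shown because the values of their members are set side by side below, where the difference between neighbours was not tested. Each is 150 bases of the first coding exon (RefSeq, TAIR10.1, minus strand), with capitals at bases that differ within the pair. The stretches are chr1:3398124-3398273 for GSTU17, chr1:3396657-3396806 for GSTU18, chr2:12627451-12627600 for GSTU4, chr2:12632211-12632360 for GSTU1, chr1:662042-662191 for GSTF6 and chr1:659556-659705 for GSTF7.
GSTU17: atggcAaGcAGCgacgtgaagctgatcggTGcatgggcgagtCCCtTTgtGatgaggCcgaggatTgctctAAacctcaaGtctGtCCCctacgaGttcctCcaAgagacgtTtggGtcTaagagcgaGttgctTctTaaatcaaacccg
GSTU18: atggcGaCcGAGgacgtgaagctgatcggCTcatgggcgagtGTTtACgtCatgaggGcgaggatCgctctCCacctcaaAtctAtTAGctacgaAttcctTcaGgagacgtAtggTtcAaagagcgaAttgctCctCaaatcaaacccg
GSTU4: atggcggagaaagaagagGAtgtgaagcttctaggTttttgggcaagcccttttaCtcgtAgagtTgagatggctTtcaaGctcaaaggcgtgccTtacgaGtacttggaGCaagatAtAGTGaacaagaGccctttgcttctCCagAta
GSTU1: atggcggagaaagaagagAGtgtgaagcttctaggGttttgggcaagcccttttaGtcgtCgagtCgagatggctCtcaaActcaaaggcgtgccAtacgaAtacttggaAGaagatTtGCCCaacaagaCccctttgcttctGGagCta
GSTF6: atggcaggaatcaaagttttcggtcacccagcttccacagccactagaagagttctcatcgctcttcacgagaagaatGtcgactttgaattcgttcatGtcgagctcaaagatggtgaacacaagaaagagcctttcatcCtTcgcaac
GSTF7: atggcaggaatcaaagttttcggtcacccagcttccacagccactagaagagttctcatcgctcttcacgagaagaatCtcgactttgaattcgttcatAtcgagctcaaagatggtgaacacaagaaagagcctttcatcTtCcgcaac

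The stretch of GSTU17 and GSTU18 differed at 31 bases, that of GSTU4 and GSTU1 at 21, and that of GSTF6 and GSTF7 at 4. Over the whole coding sequence GSTU17 and GSTU18 were 81.6% identical and GSTF6 and GSTF7 94.7%. GSTF6 and GSTF7 shared 53 of their 75-base exon windows exactly (4.5% and 4.7% of each), so part of their reads may have been split between them. GSTU17 and GSTU18 overlap by 71 bases on the same strand, and GSTF8 overlaps its neighbour AT2G47720 by 516 bases and shares windows with it. In all, 12 members overlap another annotated gene, 9 of them on the opposite strand: GSTU2, GSTU6, GSTU7, GSTU10, GSTF2, GSTF4, GSTF10, GSTF11 and GSTF12. The strand setting of the counting is not given in the sources used here, so reads of these genes and of their antisense partners may not be told apart.

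The 5 most abundant members made up 74.8% of the summed CPM of all 41. Per kilobase of exon, GSTU19 had the highest level with a mean of 386 CPM per kb over the 12 samples, followed by GSTF9 with 276, GSTF10 with 151, and GSTF8 and GSTF2 with 107 each. This is the order of means over all samples, and it was not the same in every group: GSTU7 was at 113 CPM per kb and GSTF2 at 85.1 in treated hda9-1. GSTF8 has the highest annotated exon length of the members, 2395 bases, and in CPM alone its mean was 257, above the 171 of GSTF10. GSTU19 (AT1G78380), a tau enzyme with broad activity towards herbicide-like substrates, was at 324, 348 and 372 CPM in untreated wild type, 359, 419 and 414 in treated wild type, 398, 444 and 385 in untreated hda9-1, and 602, 476 and 641 in treated hda9-1. Treated hda9-1 was the highest group and overlapped none of the others. GSTF8 (AT2G47730), a stress marker with a plastid-targeted form, was at 226, 232 and 241 CPM in untreated wild type, 240, 235 and 292 in treated wild type, 217, 235 and 199 in untreated hda9-1, and 352, 261 and 350 in treated hda9-1. GSTF2 (AT4G02520), a phi protein that binds ligands such as camalexin, was at 176, 223 and 255 CPM in untreated wild type, 137, 144 and 179 in treated wild type, 125, 152 and 114 in untreated hda9-1, and 166, 93.6 and 116 in treated hda9-1. For GSTF2 only untreated wild type against untreated hda9-1 showed no overlap among the single-factor comparisons. The order below these was GSTU7, GSTU5 and GSTU20 at 78.5, 46.3 and 45.4 CPM per kb. GSTF8 and GSTF2, and likewise GSTU5 and GSTU20, were closer to each other than their spread over samples. The least abundant tested member was GSTU12.

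**Figure D1:**
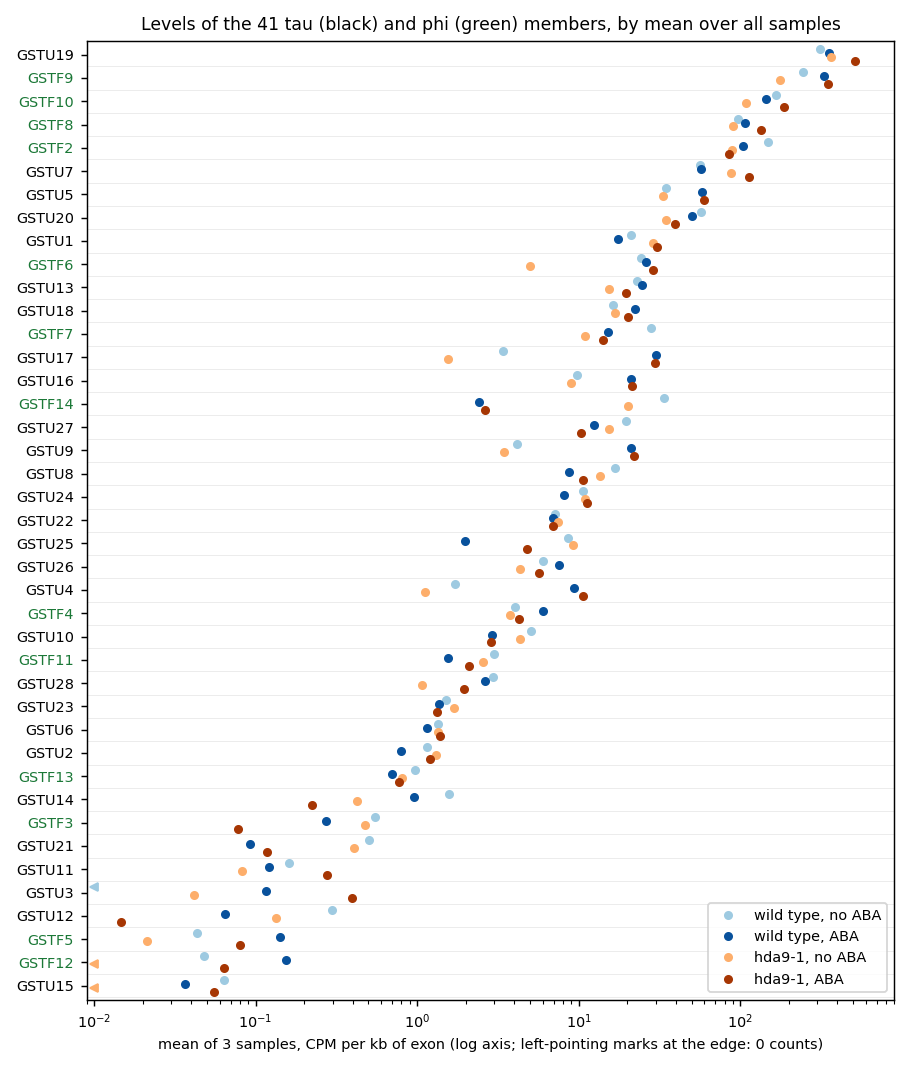
Mean level of each member in the 4 groups, in CPM per kb of exon on a log axis, ordered by the mean over all 12 samples (tau names in black, phi names in green). The 4 highest after GSTU19, which leads at 386 CPM per kb, are phi genes, and GSTU17, GSTU4, GSTU9 and GSTF14 show wide gaps between treated and untreated seedlings.

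After ABA in wild type, 9 members, GSTU3 included, rose and 7 fell. GSTU17 rose most among members with counts in every sample, by 3.13 log2, and GSTF14 fell most. Over all tested genes 30.9% passed the test, 17.0% with a rise and 14.0% with a fall. The treated and untreated samples did not overlap for 9 members that were higher and 10 that were lower, against 25.2% and 26.4% of all tested genes. The median log2 fold change was -0.19 over the members and -0.02 over all genes. Without treated wild-type replicate 2, 5 members rose. With the length trend removed, 9 members rose and 8 fell in wild type, against 19.1% and 15.8% of all genes. The added fall was that of GSTF2 (-0.53 ± 0.19, adjusted p = 0.050), at the edge of the threshold. GSTF2 was also added with DESeq2 and with upper-quartile factors. After ABA in hda9-1, 13 members, GSTU3 included, rose and 5 fell. Of all genes 41.9% passed there, 23.3% with a rise and 18.6% with a fall. Samples did not overlap for 12 higher and 6 lower members, against 25.3% and 21.3% of all genes. The members' median was 0.19, against 0.01 for all genes and 0.28 for the short genes. With the length trend removed, 11 members rose and 7 fell in hda9-1 and their median was -0.09. Without untreated hda9-1 replicate 3, 3 members fell.

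The 7 members that rose after ABA in both genotypes were GSTU3, GSTU4, GSTU5, GSTU9, GSTU16, GSTU17 and GSTF9. They are 7 of the 9 that rose in wild type and 7 of the 13 that rose in hda9-1, GSTU3 included. They make up 18.9% of the tested members, against 14.5% of all tested genes that rose in both. That share counts GSTU3, whose rise in hda9-1 is a description only, so nothing is drawn from the difference. The 4 that fell in both, GSTU10, GSTU25, GSTU27 and GSTF14, are 4 of the 7 that fell in wild type and 4 of the 5 in hda9-1. They are 10.8% of the tested members, against 10.2% of all genes. When the length trend was removed, 7 members, GSTU3 again included, rose in both genotypes (18.9%, against 16.1% of all genes). Then 6 fell in both (16.2%, against 11.7%). The rises in hda9-1 were then 4.04 log2 for GSTU17, 3.04 for GSTU4, 2.44 for GSTU9, 1.05 for GSTU16 and 2.31 for GSTF6, and all 5 still passed the test. The falls in hda9-1 were then -3.12 for GSTF14, -1.26 for GSTU25, -0.80 for GSTU10 and -2.84 for GSTF3, which also still passed.

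GSTU17 (AT1G10370), also known as ERD9 and as a negative regulator of drought and salt tolerance, was at 2.97, 4.94 and 4.00 CPM in untreated wild type and at 32.0, 35.6 and 36.3 after ABA. In hda9-1 it was at 1.88, 1.49 and 2.03 without ABA and at 35.6, 28.7 and 38.9 with ABA. Every treated sample was above every untreated sample, and the treated groups of the 2 genotypes overlapped. The rise was 3.13 ± 0.17 log2 in wild type (adjusted p = 1.2e-09) and 4.25 ± 0.19 in hda9-1 (adjusted p = 6.0e-11). Its neighbour GSTU18 (AT1G10360) moved little: 17.6, 14.8 and 17.2 CPM became 20.4, 23.4 and 24.3 in wild type, a rise of 0.46 ± 0.15 (adjusted p = 0.024). In hda9-1, GSTU18 differed by 0.28 ± 0.15, which did not pass the test (adjusted p = 0.14). The mean share of GSTU17 in the summed CPM of the pair went from 19.4% to 60.4% in wild type and from 9.58% to 62.6% in hda9-1.

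GSTU4 (AT2G29460), a tau gene of the cluster on chromosome 2, was at 2.07, 1.3 and 2.70 CPM in untreated wild type and 7.86, 13.6 and 11.6 with ABA. In hda9-1 its values were 1.22, 1.20 and 1.55 without and 12.9, 9.54 and 15.3 with ABA. Treated and untreated samples were fully apart in both genotypes, with rises of 2.44 ± 0.27 and 3.25 ± 0.28 log2 (adjusted p = 4.8e-06 and 2.9e-07). GSTU1 (AT2G29490) at the end of the same cluster did not pass the test after ABA, with differences of -0.27 ± 0.15 and 0.10 ± 0.15. GSTU5 (AT2G29450), next to GSTU4, rose by 0.74 ± 0.08 and 0.84 ± 0.08 (adjusted p = 1.6e-06 and 2.9e-07). GSTU3 (AT2G29470), on the other side of GSTU4, was near the limit of detection: 0 counts in all 3 untreated wild-type samples and 0.0950, 0.195 and 0.0835 CPM after ABA. In hda9-1 GSTU3 was at 0.0413, 0.0919 and 0 CPM without and 0.346, 0.446 and 0.485 with ABA. Its rise in wild type was at least 6.34-fold, taking 3 counts over the untreated group as the floor (adjusted p = 0.015). In hda9-1 the difference was 3.23 ± 0.90 log2, in the group that also let GSTU3 through the filter, so its test there is not independent of that filter. GSTU3 did not pass the filter when all counts were halved, so it was not tested there. Its wild-type call was lost without treated wild-type replicate 2 (adjusted p = 0.051).

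GSTU9 (AT5G62480), a tau gene that stands alone on chromosome 5, was at 4.29, 4.26 and 4.35 CPM in untreated wild type and at 19.8, 20.1 and 24.9 with ABA. In hda9-1 it went from 3.39, 4.05 and 3.21 CPM to 27.0, 20.5 and 20.9. The groups were apart in both genotypes, and the rises were 2.33 ± 0.15 and 2.68 ± 0.15 log2 (adjusted p = 5.6e-09 and 1.0e-09). GSTU16 (AT1G59700) was at 10.1, 12.2 and 10.7 CPM in untreated wild type, 20.3, 26.8 and 23.7 in treated wild type, 10.6, 10.9 and 8.63 in untreated hda9-1, and 21.1, 23.0 and 28.0 in treated hda9-1. Its rise was 1.10 ± 0.14 and 1.26 ± 0.14 log2 (adjusted p = 1.7e-05 and 3.4e-06), again with no overlap between treated and untreated samples. Its tandem partner GSTU15 was not tested, at no more than 0.122 CPM in any sample.

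GSTF14 (AT1G49860), a phi gene that stands alone on chromosome 1, showed the largest fall. It was at 39.6, 38.3 and 41.8 CPM in untreated wild type and at 3.02, 2.03 and 3.59 after ABA. In hda9-1 it was at 30.5, 27.0 and 14.6 CPM without and 4.06, 2.69 and 2.69 with ABA. All treated samples were far below all untreated ones, and the log2 changes were -3.80 ± 0.29 and -2.93 ± 0.28 (adjusted p = 7.9e-07 and 4.9e-06). GSTU25 (AT1G17180), a tau enzyme studied for detoxification of the explosive TNT, was at 9.60, 6.95 and 9.60 CPM in untreated wild type and 1.83, 2.24 and 1.98 with ABA. Its values in hda9-1 were 9.44, 7.86 and 10.8 CPM without and 6.48, 2.21 and 5.89 with ABA. Treated wild type was low and tight, whereas treated hda9-1 had a single sample, replicate 2, near the wild-type level. GSTU25 fell by 2.11 ± 0.31 log2 in wild type (adjusted p = 1.4e-04) and by 0.95 ± 0.30 in hda9-1 (adjusted p = 0.019). The hda9-1 value was -0.61 without treated replicate 2 (adjusted p = 0.016) and the call was lost without untreated hda9-1 replicate 3 (adjusted p = 0.059). Some root markers fell in the same comparisons, 3 of 10 in wild type and 4 of 10 in hda9-1, with 1 of 10 higher in hda9-1. Of 9 leaf markers, 2 fell and 2 rose in wild type, and 3 fell and 0 rose in hda9-1. Over all tested genes 14.0% fell and 17.0% rose in wild type, and 18.6% fell and 23.3% rose in hda9-1. The part of these markers in the falls of these genes was not tested. In bulk seedlings, fewer cells of a type and less RNA per cell cannot be told apart.

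GSTU21 (AT1G78360), at 0.522, 0.336 and 0.519 CPM in untreated wild type and 0.0475, 0.0779 and 0.125 after ABA, fell by 2.41 ± 0.81 log2 (adjusted p = 0.032). In hda9-1 it was at 0.496, 0.345 and 0.261 CPM without and 0.231, 0 and 0.0882 with ABA, a difference that did not pass (adjusted p = 0.082) but did with the length trend removed (-2.17, adjusted p = 0.033). Neither pair of groups overlapped, but the wild-type call was lost when untreated wild-type replicate 1 or 3 or any treated wild-type replicate was left out (adjusted p up to 0.11). GSTU8, GSTU10, GSTU27 and GSTF11 fell by 0.65 to 0.95 log2 in wild type. GSTU8 also fell in hda9-1 with the length trend removed, by 0.49 (adjusted p = 0.035). In hda9-1 GSTU10 fell by 0.60 ± 0.19 (adjusted p = 0.018), a call that was lost without untreated replicate 2 or 3 or treated replicate 2 of hda9-1 (adjusted p up to 0.066). GSTF11, which serves the synthesis of aliphatic glucosinolates, lost its call without untreated replicate 1 or 3 or treated replicate 1 or 3 of wild type, or without untreated hda9-1 replicate 2 (adjusted p up to 0.18). GSTF4 rose by 0.57 ± 0.20 (adjusted p = 0.042) and GSTF9 by 0.44 ± 0.14 (adjusted p = 0.026) in wild type. The calls of GSTU18 and GSTF4 were lost without untreated replicate 2 or 3 or treated replicate 2 or 3 of wild type, and that of GSTF4 also without untreated hda9-1 replicate 2 (adjusted p up to 0.10 and 0.19). That of GSTF9 was lost without untreated replicate 1 or 2 or treated replicate 2 or 3 of wild type (adjusted p up to 0.11).

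In hda9-1, 3 abundant phi genes and GSTU19 also rose after ABA, of which GSTF9 rose in wild type as well. GSTF9 (AT2G30860) was at 266, 294 and 344 CPM in untreated wild type, 343, 465 and 418 in treated wild type, 235, 220 and 196 in untreated hda9-1, and 391, 383 and 526 in treated hda9-1. Untreated hda9-1 was the lowest group and overlapped none of the others. GSTF9 rose by 1.00 ± 0.14 log2 in hda9-1 (adjusted p = 5.0e-05). GSTF10 (AT2G30870), or ERD13, was at 139, 216 and 211 CPM in untreated wild type, 156, 166 and 171 in treated wild type, 131, 138 and 99.8 in untreated hda9-1, and 236, 168 and 226 in treated hda9-1. It rose by 0.78 ± 0.17 in hda9-1 (adjusted p = 0.0030) and did not pass the test in wild type, at -0.20 ± 0.17 (adjusted p = 0.43). GSTF8 rose by 0.57 ± 0.12 (adjusted p = 0.0012) and GSTU19 by 0.49 ± 0.11 (adjusted p = 0.0025) in hda9-1. These 4 values were 0.82, 0.56, 0.63 and 0.27 with the length trend removed, and all 4 still passed the test.

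GSTF6 (AT1G02930), a phi enzyme of camalexin synthesis, varied widely between replicates. It was at 12.3, 47.7 and 26.8 CPM in untreated wild type, 20.4, 35.4 and 37.6 in treated wild type, 7.27, 6.37 and 4.05 in untreated hda9-1, and 41.6, 18.9 and 41.4 in treated hda9-1. Untreated hda9-1 was below every other sample, and the other 3 groups overlapped. GSTF6 rose by 2.53 ± 0.54 log2 after ABA in hda9-1 (adjusted p = 0.0052) and differed by 0.11 ± 0.50 in wild type (adjusted p = 0.90). Its near copy GSTF7 (AT1G02920) was at 24.9, 43.2 and 34.0 CPM in untreated wild type, 10.7, 20.8 and 23.9 in treated wild type, 13.1, 14.3 and 12.8 in untreated hda9-1, and 25.9, 8.28 and 17.0 in treated hda9-1. GSTF7 did not pass the test in any comparison by the counts as deposited. In untreated hda9-1 it was 1.35 ± 0.41 log2 below wild type (adjusted p = 0.060) with no overlap between the groups, and this difference passed with the length trend removed (-1.29 ± 0.38, adjusted p = 0.046). GSTF3 (AT2G02930) fell by 2.60 ± 0.69 in hda9-1 (adjusted p = 0.0065), from 0.372, 0.529 and 0.602 CPM to 0.162, 0.0608 and 0.0221. In wild type it was at 0.468, 0.483 and 0.779 CPM without and 0.142, 0.292 and 0.418 with ABA, which did not pass (adjusted p = 0.22), and the groups were apart in both genotypes. The other calls in hda9-1 were small: GSTU7 rose by 0.38 ± 0.14 and GSTU13 by 0.37 ± 0.14 (adjusted p = 0.045 and 0.046), and both lost the call with the length trend removed (adjusted p = 0.80 and 0.17) and in 10 and 6 of the 12 fits with 1 library left out.

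**Figure D2:**
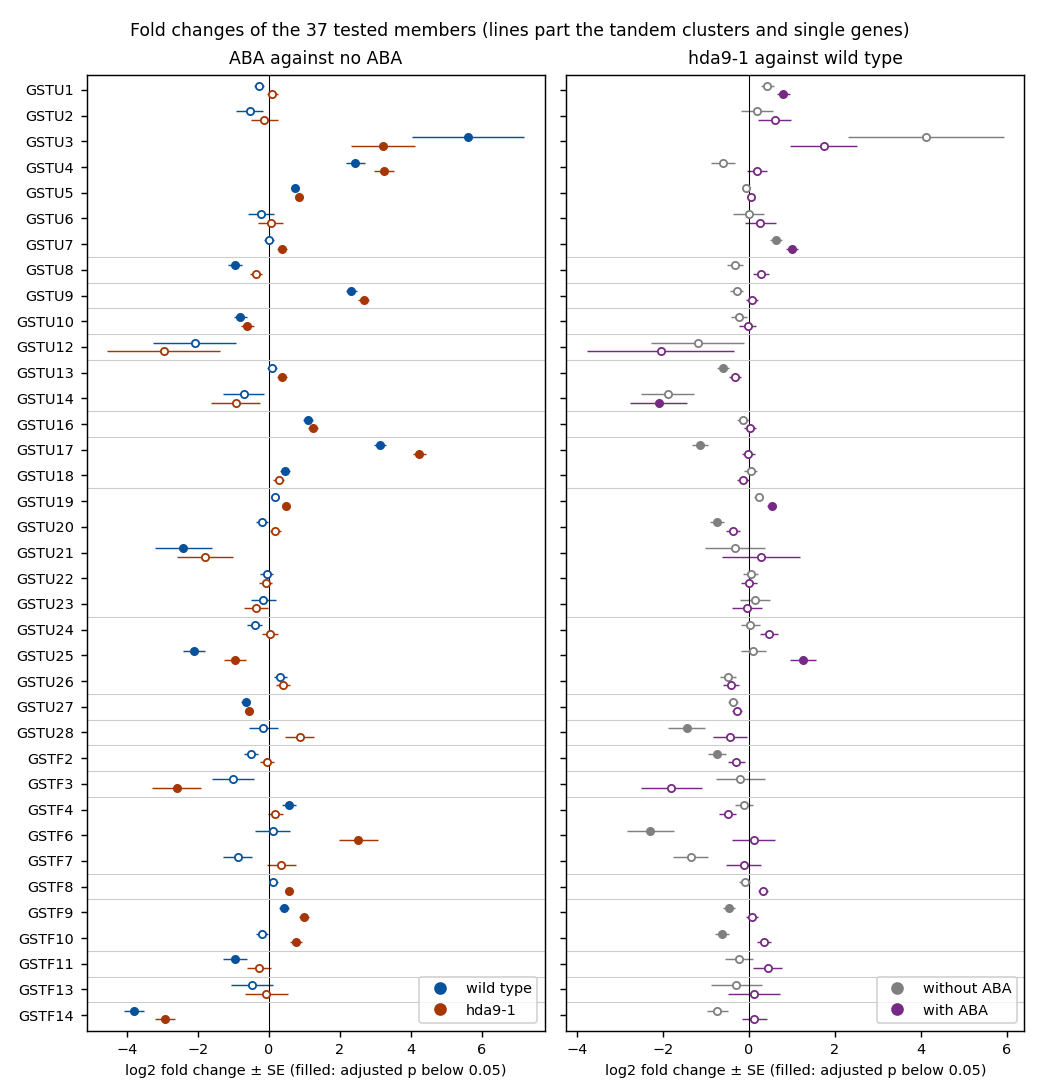
Log2 fold change ± SE of the 37 tested members after ABA in each genotype (left) and in hda9-1 against wild type without and with ABA (right), with filled points where the adjusted p is below 0.05. Grey lines part tandem clusters and single genes. The points of GSTU17, GSTU9, GSTU4 and GSTF14 lie far from 0 on the left, and in untreated seedlings all 11 phi points lie below 0 on the right.

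Without ABA, hda9-1 seedlings had lower levels of 8 members and a higher level of 1. Over all tested genes 13.5% passed the test, 6.57% lower and 6.98% higher. Samples did not overlap for 15 members that were lower and 3 that were higher, against 19.6% and 17.0% of all genes. The members' median log2 difference was -0.28, against -0.04 for all genes and -0.14 for the short genes. With the length trend removed, 8 members were lower and 3 higher, with a median of -0.18. Without replicate 3 of either untreated group 2 members were lower, and without untreated wild-type replicate 2, 3 were. The lower members were GSTU13, GSTU17, GSTU20, GSTU28, GSTF2, GSTF6, GSTF9 and GSTF10, and the higher one was GSTU7.

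GSTU17 was 1.13 ± 0.19 log2 lower in untreated hda9-1 (adjusted p = 0.0017), with each mutant sample below each wild-type sample. GSTU20 (AT1G78370), known as a partner of the jasmonate-conjugating enzyme FIN219 and as a gene of aliphatic glucosinolate synthesis, was at 55.3, 61.0 and 81.5 CPM in untreated wild type and at 37.2, 41.5 and 39.9 in untreated hda9-1. It was 0.74 ± 0.16 lower (adjusted p = 0.010), again with no overlap. These 2 were the calls of this comparison that held in all 12 fits with 1 library left out. GSTF6 was 2.29 ± 0.54 lower (adjusted p = 0.026), GSTF2 0.74 ± 0.20 (adjusted p = 0.033), GSTF10 0.62 ± 0.17 (adjusted p = 0.033) and GSTF9 0.47 ± 0.14 (adjusted p = 0.038). Each of these 4 phi calls was lost without untreated wild-type replicate 2 or 3 or untreated hda9-1 replicate 3, GSTF2, GSTF6 and GSTF10 also without untreated hda9-1 replicate 1, GSTF6 and GSTF9 also without untreated hda9-1 replicate 2, and GSTF9 also without treated wild-type replicate 3. The highest adjusted p was 0.098 for GSTF6, 0.12 for GSTF2 and GSTF10, and 0.15 for GSTF9.

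GSTU28 (AT1G53680), a tau gene that stands alone on chromosome 1, was at 1.77, 2.86 and 2.05 CPM in untreated wild type and 1.3, 0.690 and 0.442 in untreated hda9-1. It was at 2.35, 1.67 and 2.00 CPM in treated wild type and 1.11, 2.39 and 0.926 in treated hda9-1. The untreated groups did not overlap, and the difference was -1.45 ± 0.42 (adjusted p = 0.031), which did not pass with the length trend removed (adjusted p = 0.089) or without replicate 2 or 3 of either untreated group (adjusted p up to 0.12). GSTU13, which acts in the indole glucosinolate branch of immunity, was 0.59 ± 0.14 lower (adjusted p = 0.012), and its call was lost without replicate 3 of either untreated group (adjusted p up to 0.066). Of the 10 root markers, 2 (PIN2 and NRT2.1) were also lower in untreated hda9-1, by 0.49 ± 0.12 and 2.52 ± 0.51 (adjusted p = 0.013 and 0.0054), and 8 of 10 had a negative value. Of 9 leaf markers, 1 was lower and 3 had a negative value. Over all tested genes 6.57% were lower and 54.3% had a negative value. The part of these markers in the lower levels of these members was not tested.

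GSTU7 (AT2G29420) was the member that was higher in hda9-1 under both conditions by the counts as deposited (2.70% of the tested members, against 3.08% of all genes). It was at 47.1, 52.4 and 50.8 CPM in untreated wild type, 46.7, 49.6 and 54.9 in treated wild type, 68.7, 86.8 and 76.4 in untreated hda9-1, and 124, 75.3 and 103 in treated hda9-1. Every hda9-1 sample was above every wild-type sample. The difference was 0.63 ± 0.14 log2 without ABA (adjusted p = 0.012) and 1.00 ± 0.14 with ABA (adjusted p = 0.0012), and 0.75 and 0.74 with the length trend removed. The call without ABA was lost without untreated hda9-1 replicate 2 (adjusted p = 0.051). GSTU1 and GSTU19 were also higher under both conditions with the length trend removed, by 0.50 and 0.31 without ABA (adjusted p = 0.011 and 0.013). By the counts as deposited these untreated differences were 0.43 ± 0.15 and 0.23 ± 0.11 and did not pass (adjusted p = 0.062 and 0.18).

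With ABA, 4 members were higher in hda9-1 and 1 was lower, against 7.50% and 5.21% of all tested genes (12.7% together). Samples did not overlap for 4 members that were higher and 4 that were lower, against 15.2% and 14.3% of all genes. The median over the members was 0.08, against 0.01 for all genes and 0.20 for the short genes. With the length trend removed, 4 members were higher and 6 lower, the added ones being GSTU13, GSTU20, GSTU26, GSTU27 and GSTF4. GSTU25 was 1.26 ± 0.31 higher in treated hda9-1 (adjusted p = 0.020). That call was lost when any treated wild-type replicate, or treated hda9-1 replicate 1 or 3, was left out (adjusted p up to 0.083), and the value was 1.59 without treated hda9-1 replicate 2. GSTU1 was at 18.2, 21.8 and 18.2 CPM in treated wild type and 41, 26.9 and 33.8 in treated hda9-1, a difference of 0.80 ± 0.15 (adjusted p = 0.0038). GSTU19 was 0.53 ± 0.11 higher (adjusted p = 0.0073). GSTU25, GSTU1 and GSTU19 still passed with the length trend removed, at 1.03, 0.65 and 0.38. Of the 10 root markers, 0 passed in this comparison, but all 10 had a negative value (median -0.58). Of 9 leaf markers, 1 was lower and 4 had a negative value. Over all tested genes 5.21% were lower and 48.2% had a negative value. The part of these markers in the differences of the members with ABA was not tested.

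GSTU14 (AT1G27140) was the member that was lower in treated hda9-1. It was at 0.499, 1.21 and 1.13 CPM in treated wild type and 0.0923, 0.0810 and 0.485 in treated hda9-1, and at 1.17, 1.62 and 1.88 in untreated wild type and 0.785, 0.184 and 0.281 in untreated hda9-1. Each hda9-1 sample was below each wild-type sample of the same treatment. The difference with ABA, -2.10 ± 0.67, was at the edge of the threshold (adjusted p = 0.050) and was lost in 9 of the 12 fits with 1 library left out (adjusted p up to 0.15), those other than without untreated hda9-1 replicate 1 or 3 or treated hda9-1 replicate 3. Without ABA the difference was -1.89 ± 0.62 (adjusted p = 0.056).

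**Figure D3:**
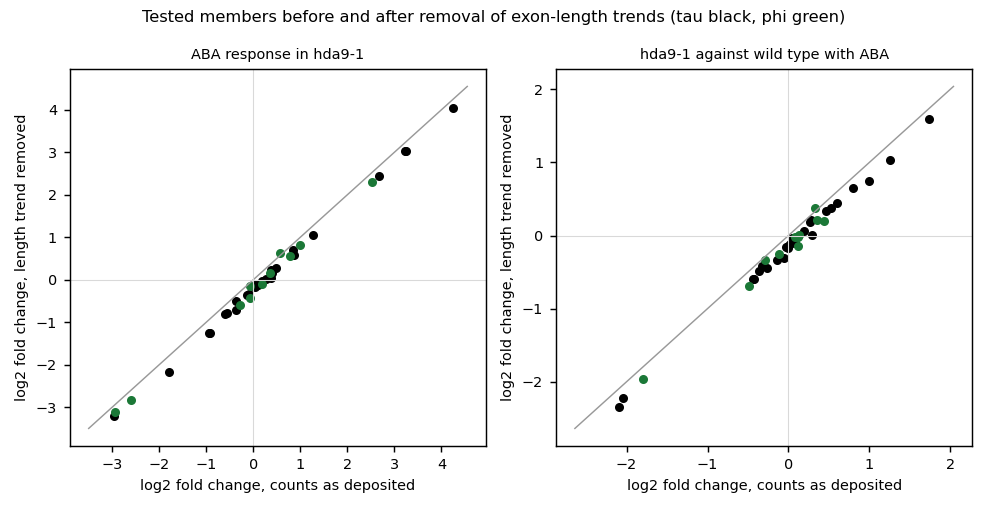
Log2 fold changes of the 37 tested members from the counts as deposited (horizontal axis) and with the length trend of each library removed (vertical axis), for the ABA response in hda9-1 and for hda9-1 against wild type with ABA. Most points lie below the grey line of equality, and the members' median moves from 0.19 to -0.09 on the left and from 0.08 to -0.10 on the right.

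To test whether the ABA response of a member differed between genotypes, the interaction of genotype and ABA was fitted. No member and none of the 20924 genes passed by edgeR (0% called), while 2467 genes (11.8%) had an unadjusted p below 0.05. Among those were 9 members: GSTU4, GSTU8, GSTU17, GSTU25, GSTF6, GSTF8, GSTF9, GSTF10 and GSTF14. limma-voom also called 0 genes, and DESeq2 called 129, with GSTU17 (1.08 ± 0.25, adjusted p = 0.011) and GSTF10 (0.94 ± 0.24, adjusted p = 0.024) among them. By edgeR, GSTU17 stood at 1.12 ± 0.24 (adjusted p = 0.21), GSTF10 at 0.97 ± 0.25 (adjusted p = 0.24) and GSTF6 at 2.42 ± 0.73 (adjusted p = 0.31). The count rests on 1 library: without treated hda9-1 replicate 2, 1612 genes passed by edgeR, with GSTU7, GSTU17, GSTU25, GSTF8 and GSTF10 among them. With the length trend removed as well, 200 genes passed, with GSTF8 the member among them (0.64 ± 0.14, adjusted p = 0.044). GSTF8 is not a short gene, with an annotated exon length of 2395 bases, and its value was 0.53 before that removal. GSTU17, GSTU25, GSTF10 and GSTU7 went from 1.20, 1.48, 1.08 and 0.51 to 0.95, 1.11, 0.81 and 0.02 and did not pass. The call of GSTF8 under this setting thus depends on its annotated length. The fall of a member in untreated hda9-1 and its rise after ABA in hda9-1 share the same 3 untreated samples and are not separate evidence.

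Within tandem clusters, tested neighbours were not always called together. After ABA in wild type, 5 of the 9 clusters held both called and uncalled members, and in hda9-1 6 of 9 did. The pairs GSTU11 with GSTU12 and GSTU15 with GSTU16 had 1 tested member each and could not be mixed. Over all tested genes 30.9% passed in wild type and 41.9% in hda9-1. How often other neighbouring genes are mixed was not counted. In the cluster GSTU1 to GSTU7, 3 of 7 rose in wild type and 4 of 7 in hda9-1 after ABA, and none fell. GSTU3 is counted in both genotypes. The summed level of that cluster was 120 to 124 CPM in untreated wild type, 144 to 164 in treated wild type, 141 to 171 in untreated hda9-1 and 187 to 261 in treated hda9-1, where only treated wild type and untreated hda9-1 overlapped. The share of GSTU4 in that sum rose from 1.66% to 6.96% in wild type, and GSTU7 with GSTU5 held most of it in all groups. In GSTU24 to GSTU26, GSTU25 fell after ABA while GSTU24 (-0.40 ± 0.22) and GSTU26 (0.33 ± 0.19) did not pass in wild type. In GSTU19 to GSTU23, GSTU19 held 82.3% to 91.4% of the summed CPM in the group means. In the cluster of GSTF9 and GSTF10 both members were lower in untreated hda9-1. The 12 single genes, of which 11 were tested, gave 1 rise (GSTU9) and 5 falls after ABA in wild type, with a median of -0.65. Over all tested genes 17.0% rose and 14.0% fell there, with a median of -0.02. The fall of GSTF11 was lost in 5 of the 12 fits with 1 library left out. In hda9-1 the single genes gave 2 rises and 4 falls (median -0.28). There 23.3% of all genes rose and 18.6% fell (median 0.01). No test of single against clustered genes was made.

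**Figure D4:**
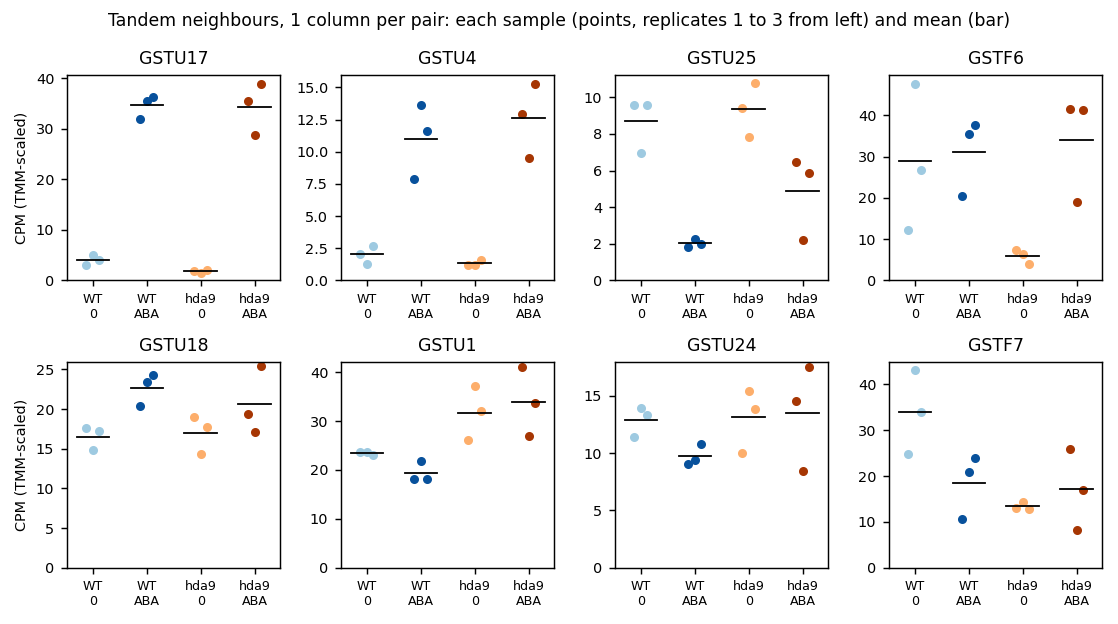
CPM of 4 tandem pairs in every sample (points, replicates 1 to 3 from left to right) with the group mean (bar), on linear axes from 0. After ABA in wild type the upper genes GSTU17, GSTU4 and GSTU25 differ by 3.13, 2.44 and -2.11 log2 and the lower genes GSTU18, GSTU1 and GSTU24 by 0.46, -0.27 and -0.40, and GSTF6 is low in untreated hda9-1.

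The tau and phi classes were compared by counts. After ABA in wild type, 7 of 26 tested tau members rose (26.9%) and 5 fell (19.2%). Of 11 tested phi members, 2 rose and 2 fell (18.2% each). Over all tested genes 17.0% rose and 14.0% fell. In hda9-1, 9 tau members rose (34.6%) and 3 fell (11.5%), and 4 phi members rose (36.4%) and 2 fell (18.2%). There 23.3% of all genes rose and 18.6% fell, and 31.8% and 6.77% of the short genes. The tau rises include GSTU3 in both genotypes. Medians were -0.15 for tau and -0.48 for phi in wild type and 0.14 and 0.19 in hda9-1. Once the length trend was removed, 7 tau members rose and 5 fell in hda9-1 (median -0.05), and 4 phi members rose and 2 fell (median -0.10). Of all genes 22.3% then rose and 19.8% fell. In wild type 7 tau members then rose and 5 fell, and 2 phi members rose and 3 fell, against 19.1% and 15.8% of all genes. In untreated hda9-1 against wild type, all 11 phi members had a negative value with 4 called (median -0.47), and 16 of 26 tau members had a negative value with 4 lower and 1 higher (median -0.18). Of all tested genes 54.3% had a negative value, 6.57% were called lower and 6.98% higher. With the length trend removed, 5 phi members were lower and the phi median was -0.41, and 3 tau members were lower and 3 higher. Of all genes 7.34% were then lower and 8.95% higher. With ABA, no phi member passed and 4 tau members were higher and 1 lower, against 7.50% and 5.21% of all genes. After removal of that trend, 4 tau members were higher and 5 lower with ABA, and the phi gene GSTF4 was lower (-0.69, adjusted p = 0.026). Of all genes 8.1% were then higher and 6.47% lower. These members are not replicates, and no test of the classes against each other was made.

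The summed level of the 13 phi genes was 894 to 1162 CPM in untreated wild type, 918 to 1134 in treated wild type, 648 to 799 in untreated hda9-1 and 941 to 1287 in treated hda9-1. Untreated hda9-1 was the lowest and overlapped no other group. The summed level of the 28 tau genes was 647 to 735 CPM in untreated wild type, 729 to 849 in treated wild type, 703 to 793 in untreated hda9-1 and 863 to 1137 in treated hda9-1, which was the highest and overlapped no other group. These sums are set mainly by GSTF9, GSTF8, GSTF10 and GSTF2 for phi and by GSTU19 for tau. In both sums treated hda9-1 replicate 2, the library without the excess of short genes, was the lowest of its group.

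Other genes of glutathione use were counted from lists, by the counts as deposited. Over all tested genes 17.0% rose and 14.0% fell after ABA in wild type, and 23.3% rose and 18.6% fell in hda9-1. The lists are small, and no test of a list was made. Of 12 genes of the other soluble classes, 4 rose and 2 fell after ABA in wild type, and 5 rose and 1 fell in hda9-1. DHAR1, a dehydroascorbate reductase that recycles ascorbate with glutathione, rose by 1.02 ± 0.13 and 1.46 ± 0.13 log2 (adjusted p = 2.7e-05 and 5.4e-07) and was 0.68 ± 0.13 lower in untreated hda9-1 (adjusted p = 0.0044). Of the 12, 5 rose and 3 fell in hda9-1 with the length trend removed, with DHAR2 (-0.39, adjusted p = 0.0016) and GSTL2 (-0.45, adjusted p = 0.0043) added to the falls. GSTL3 and TCHQD rose in both genotypes, and GSTL1, of the lambda class, fell by 2.35 ± 0.38 and 1.78 ± 0.37 (adjusted p = 6.2e-04 and 0.0026). Of 8 tested genes of glutathione synthesis and turnover, 1 rose and 0 fell after ABA in wild type, and 2 rose and 1 fell in hda9-1. GGT4, a vacuolar gamma-glutamyl transpeptidase that degrades conjugates, rose in both genotypes by 0.41 ± 0.11 and 0.30 ± 0.11 (adjusted p = 0.0072 and 0.033). The 2 synthesis genes GSH1 and GSH2 did not pass in any of the 4 comparisons, but with the length trend removed GSH1 passed after ABA in hda9-1 and in hda9-1 against wild type with ABA (0.24 and 0.28, adjusted p = 0.035 and 0.041). Of 5 ABCC transporters, ABCC4 and ABCC5 rose in both genotypes, by 0.51 to 0.74, and ABCC1 fell by 0.41 ± 0.10 and 0.43 ± 0.10 (adjusted p = 0.0040 and 0.0020). The fall of ABCC1 in hda9-1 did not pass with the length trend removed (adjusted p = 0.071).

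Of the 3 class II TGA factors and their partner SCL14, none passed after ABA in wild type. In hda9-1 TGA6 fell by 0.34 ± 0.13 (adjusted p = 0.046), a call lost with the length trend removed (adjusted p = 0.065), and SCL14 was 0.50 ± 0.09 higher in untreated hda9-1 (adjusted p = 0.0030). Anthocyanin synthesis, whose pigments GSTF12 carries, had 3 of 9 tested genes higher and 0 lower after ABA in wild type and 4 higher and 0 lower in hda9-1. These are 33.3% and 44.4%, against 17.0% and 23.3% of all tested genes that rose. PAP1, a MYB activator of the pathway, rose by 3.81 ± 0.61 and 6.16 ± 0.73 (adjusted p = 1.6e-04 and 6.4e-06). GSTF12 itself remained at or below 0.292 CPM in all samples. Of 13 glucosinolate genes, 4 rose and 1 fell after ABA in wild type (38.5% called), and 6 rose and 1 fell in hda9-1 (53.8%). Over all tested genes 30.9% and 41.9% passed. In untreated hda9-1, 2 of the 13 were lower (15.4%): CYP83A1 by 0.58 ± 0.13 (adjusted p = 0.0094) and CYP79B2 by 0.55 ± 0.15 (adjusted p = 0.030). Of all genes 13.5% passed there, 6.57% lower and 6.98% higher.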

How the data were processed

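The authors deposited a table of raw gene counts (23911 genes, 12 samples), and their step from reads to counts is not given in the sources used here. Per the submitters' processing notes, Bowtie2, Salmon, limma 3.56 and the TAIR10 build were named without roles. Among 4383 genes with at most 49 counts in every sample, 67.1% to 74.1% of nonzero values were even, so both mates of a pair may have been counted, and floors on 0 counts cover counting error only and may be too low. Replicates of a group differed beyond sampling noise (chi-square per degree of freedom 14.8 to 65.5), so no library was counted as a repeat.

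edgeR 4.0.16 under R 4.3.3 was run with filterByExpr (minimum count 10, minimum total 15), TMM scaling and 1 quasi-likelihood fit with robust estimation of the 4 groups over all 12 samples, with two-sided tests of 5 contrasts and Benjamini-Hochberg adjustment over all 20924 tested genes. The length trend was a lowess curve (span 0.3) of each library's deviation on exon length, entered as an offset. limma 3.58.1 (voom) and DESeq2 1.42.0 were alternatives, and the tests were tried on simulated counts. Gene models and sequences came from RefSeq (TAIR10.1), matched by gene identifier and read with Biopython 1.88 under Python 3.11.15. Motif windows were the 250 bases before the annotated start.

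The members and all gene lists were chosen with earlier results of these data known. Values in every sample are given for members called with a log2 change of at least 1 and for the 5 of highest level. From each other list the text draws on called genes of smallest p. Halving the counts, and removing the length trend without treated hda9-1 replicate 2, were chosen after seeing the data.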

Additional observations from a re-analysis of the deposited data

How the results depend on the processing

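Of the 48 calls of members, 29 held in all 12 fits with 1 library left out and 45 held with the length trend removed, and no change of sign occurred among called values under the settings tried. After ABA in wild type the members higher numbered 9 (5 to 9 with 1 library left out, 5 at an adjusted p below 0.01) and those lower 7 (5 to 8). After ABA in hda9-1 they numbered 13 higher (11 to 16) and 5 lower (3 to 7), with 3 lower at an adjusted p below 0.01 and in the fit on only the groups compared. In untreated hda9-1 against wild type, the 1 higher (0 to 2) became 0 at an adjusted p below 0.01, 2 with RLE factors, DESeq2 or only the groups compared, and 3 with the length trend removed, also without treated hda9-1 replicate 2. The 8 lower (2 to 11) became 1 at an adjusted p below 0.01. With ABA, 4 were higher (3 to 6). The 1 lower (0 to 1) became 0 at an adjusted p below 0.01 and with only the groups compared, 6 with the length trend removed, and 3 with that and without treated hda9-1 replicate 2. The interaction gave 0 higher (0 to 5) and 0 lower (0 to 0), with 2 higher under DESeq2, 5 without treated hda9-1 replicate 2, and 1 without it and with the length trend removed. Upper-quartile factors lost the wild-type calls of GSTU18, GSTF4 and GSTF9. The causes of these changes were not tested. Members below about 1 CPM are limited by depth.

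Deviations of samples with the same replicate number had correlations of -0.153 to 0.121 over 18 pairs of samples, 1 of them above 0.1. Pairs with different numbers gave -0.143 to 0.229 over 36 pairs, 3 of them above 0.1. What the number stands for is not stated, and these correlations cannot exclude that samples with 1 number were handled together. With the replicate block, 5 members were lower in untreated hda9-1 and 0 lower with ABA, and the lost calls were GSTF4 and GSTF11 after ABA in wild type, GSTU7 after ABA in hda9-1, GSTF2, GSTF6 and GSTF10 without ABA and GSTU14 with ABA. With the block and the length trend removed, 3 were higher in untreated hda9-1 and 6 lower with ABA.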
